A study of Drosophila melanogaster with 15 samples.

Results

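The vacuolar H+-ATPase (V-ATPase) is built in Drosophila from proteins whose genes carry symbols that begin with Vha. All genes with such a symbol and at least 1 measured array row annotated to that gene alone were taken, which gave 24 genes in 33 rows, of 9894 named genes in the data. The current gene records list 33 such genes. The other 9, which were not analysed here, are Vha100-3, Vha16-2, Vha16-3, Vha16-4, Vha36-3, Vha68-1, Vha68-2, VhaAC45RP and VhaPPA1-2.

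The study measured transcripts in 5 tissues dissected from Canton S larvae, a wild-type strain with no allele or agent added, about 18 hours before pupariation. The tissues were the central nervous system (CNS), midgut, wing imaginal disc, salivary gland, and epidermis taken with the muscle attached to it, with 3 independent samples each and 1 array per sample. On every array the tissue RNA carried Cy5 and RNA of equally staged whole animals carried Cy3, and dyes were not swapped, so a dye effect and a tissue effect against whole animal cannot be told apart. All values below are log2 ratios of tissue over whole animal after each array was centred on its median: 0 is the median transcript's ratio, and 1 is a doubling. A ratio compares 1 gene between tissues and does not say which of several genes is more abundant.

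The V-ATPase is a rotary proton pump. Its cytosolic V1 sector hydrolyses ATP, and its membrane V0 sector carries protons across the membrane. The pump acidifies lysosomes, endosomes and synaptic vesicles in most cells. In insects it also sits in the apical membrane of transporting epithelia such as midgut and Malpighian tubule, where it energises ion transport. Several subunits have more than 1 gene in the fly, so the subunit make-up can differ between tissues. The measured genes encode 14 subunits: 10 genes belong to V1, 13 to V0, and VhaAC45 encodes an accessory subunit.

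The dissections were checked with marker lists. All 17 midgut genes and all 6 salivary gland genes measured in every tissue had their highest mean in their own tissue, as did 10 of 11 muscle and 5 of 8 cuticle genes in epidermis, 9 of 13 disc genes and 5 of 9 neuron and glia genes. Lists of other cell types also rose. In salivary gland 4 of 6 fat body genes were higher than in the other 4 tissues and 0 lower (limma, adjusted p under 0.05), where 7.72% and 10.5% of features were. Lsp2, Fbp2 and Fbp1 lay at 3.84, 2.91 and 2.37. In epidermis 3 of 5 trachea genes were higher and 0 lower, where 8.12% and 3.63% of features were. Whether other tissue was carried along in the dissections was not tested. Arrays held 7747 to 13505 measured rows, and their number limits the precision. Arrays of 1 tissue correlated at 0.687 to 0.924 over features, with the lowest value in epidermis. In bulk tissue, fewer cells that express a gene and less RNA per cell cannot be told apart.

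Transcripts of most pump subunits differed among the tissues. Of the 20 Vha genes measured on at least 2 arrays of every tissue, 14 passed the limma F test over the 5 tissues at an adjusted p under 0.05, against 44.5% of all 8432 features tested. The 6 that did not pass were Vha100-1, Vha16-5, Vha26, Vha68-3, VhaM9.7-b and VhaM9.7-c. Midgut had the highest mean for 13 of the 20 genes, epidermis for 4, salivary gland for 2 and CNS for 1. Wing disc had the lowest mean for 10 genes, CNS for 6, epidermis for 3 and salivary gland for 1. The other 4 genes (Vha14-2, Vha36-2, VhaAC39-2 and VhaM9.7-d) were measured on 6 to 9 arrays and are described with their paralogues.

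**Figure D1:**
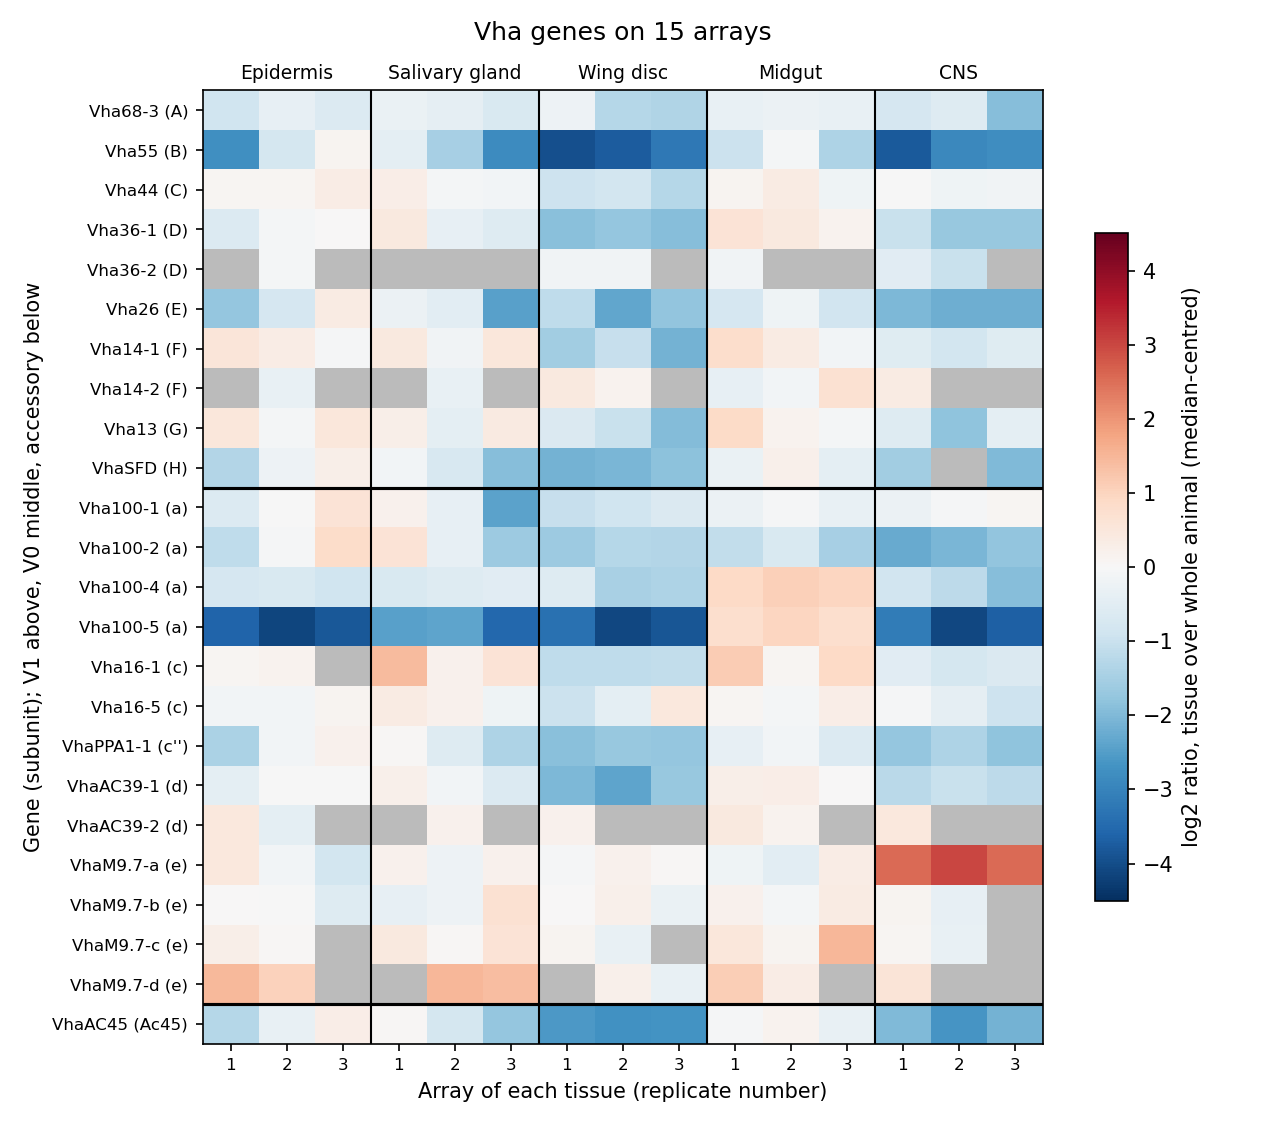
Median-centred log2 ratio of tissue over whole animal for 24 Vha genes (rows, with the subunit in brackets; V1, V0 and accessory genes separated by lines) on 15 arrays (columns, 3 per tissue); grey cells were not measured. Wing disc and CNS columns are mostly blue (below whole animal), Vha100-4 and Vha100-5 are above 0 on the midgut arrays only, and VhaM9.7-a reads 2.55 to 2.99 on the CNS arrays.

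Among V1 genes, Vha55 encodes subunit B, which forms the catalytic hexamer with subunit A. It read -3.97, -3.73 and -3.22 in wing disc, -3.77, -2.90 and -2.78 in CNS, -0.98, -0.08 and -1.39 in midgut, -2.75, -0.78 and 0.13 in epidermis, and -0.45, -1.49 and -2.84 in salivary gland. All wing disc values lay below all values of epidermis, salivary gland and midgut, while CNS overlapped salivary gland and wing disc. Its tissue means spanned 2.83, the widest range among the genes that are the only one for their subunit, and differed among tissues (limma F, adjusted p = 0.00411). Subunit A is represented by Vha68-3 alone, whose tissue means ran from -1.08 in CNS to -0.31 in midgut without passing the F test (limma, adjusted p = 0.253). These are means of 2 rows that differed (r = 0.33), and row 1 was measured on 7 arrays only. Row 2, measured on all 15 arrays, did not pass the F test either (limma, adjusted p = 0.053). That row was lower in CNS than in the other 4 tissues (-0.71, SE 0.226, adjusted p = 0.0318, limma). Against whole animal Vha68-3 was called lower in wing disc and CNS. Vha68-3 lies next to Vha68-2 on chromosome arm 2L, with no protein-coding gene between them.

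The peripheral stalks and the stator hold subunits C, E, G and H. Vha44 (subunit C, which joins V1 to V0) read -0.92, -0.81 and -1.29 in wing disc, -0.01, -0.18 and -0.16 in CNS, 0.13, 0.38 and -0.21 in midgut, 0.09, 0.09 and 0.34 in epidermis, and 0.29, -0.10 and -0.12 in salivary gland. Only the wing disc arrays stood apart, below all other 12 arrays. Vha13 (subunit G) read -0.65, -0.99 and -1.95 in wing disc, -0.58, -1.82 and -0.45 in CNS, 0.86, 0.15 and -0.09 in midgut, 0.52, -0.09 and 0.51 in epidermis, and 0.25, -0.44 and 0.40 in salivary gland. Wing disc and CNS were the low tissues for this gene and overlapped each other. VhaSFD (subunit H, a regulatory subunit) read -2.14, -2.05 and -1.83 in wing disc, -1.56 and -1.99 on the 2 CNS arrays that measured it, -0.30, 0.22 and -0.44 in midgut, -1.31, -0.22 and 0.26 in epidermis, and -0.11, -0.73 and -1.92 in salivary gland. Midgut lay above wing disc and CNS on every array, and the third salivary gland array lay among the wing disc values. Vha26 (subunit E) had means from -2.14 in CNS to -0.60 in midgut and did not pass the F test (adjusted p = 0.0884).

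The central stalk turns with the rotor and holds subunits D and F. Vha36-1 (subunit D) read -1.87, -1.73 and -1.93 in wing disc, -1.01, -1.71 and -1.70 in CNS, 0.62, 0.45 and 0.17 in midgut, -0.61, -0.09 and 0.02 in epidermis, and 0.45, -0.37 and -0.57 in salivary gland. Wing disc and CNS lay below the other 3 tissues on every array, and wing disc lay below CNS on every array without a call between them. Its paralogue Vha36-2 was measured on 6 arrays, at -0.10 in epidermis, -0.17 and -0.16 in wing disc, -0.17 in midgut, and -0.51 and -0.99 in CNS. Vha14-1 (subunit F) read -1.58, -1.05 and -2.13 in wing disc, -0.54, -0.84 and -0.55 in CNS, 0.79, 0.36 and -0.13 in midgut, 0.54, 0.34 and -0.07 in epidermis, and 0.45, -0.15 and 0.50 in salivary gland. Its order was wing disc lowest, CNS next and the other 3 tissues above, with no overlap between these 3 levels. Its paralogue Vha14-2 was measured on 8 arrays and read 0.45 and 0.15 in wing disc, where Vha14-1 was low, and -0.37, -0.12 and 0.67 in midgut; single arrays gave -0.33 in epidermis, -0.32 in salivary gland and 0.36 in CNS. Too few arrays measured Vha14-2 and Vha36-2 to test them against their paralogues.

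In V0, the c ring carries the protons. Vha16-1 (subunit c) read -1.14, -1.15 and -1.10 in wing disc, -0.50, -0.80 and -0.64 in CNS, 1.13, 0.09 and 0.90 in midgut, 0.09 and 0.17 in epidermis, and 1.41, 0.19 and 0.60 in salivary gland. The wing disc arrays agreed within an SD of 0.028 and lay below all others, with CNS next. Its paralogue Vha16-5 read -0.98, -0.45 and 0.47 in wing disc, -0.07, -0.42 and -0.92 in CNS, 0.08, -0.09 and 0.31 in midgut, -0.14, -0.13 and 0.12 in epidermis, and 0.37, 0.21 and -0.19 in salivary gland, with all tissues overlapping. These are means of a pair of unlike rows (r = 0.42 over 13 arrays). Row 2 was not measured on wing disc array 3 or CNS array 1, where the gene's value is row 1 alone. In row 2, wing disc (-1.45 and -1.05) and CNS (-0.76 and -1.3) lay below all values of epidermis, salivary gland and midgut. Row 1 did not pass the F test (limma, adjusted p = 0.769), while row 2 did (adjusted p = 0.00376), with wing disc at -1.05 (SE 0.278) and midgut at 0.84 (SE 0.239) against the other 4. VhaPPA1-1 (subunit c'') read -1.88, -1.71 and -1.74 in wing disc, -1.75, -1.40 and -1.82 in CNS, -0.38, -0.13 and -0.60 in midgut, -1.41, -0.14 and 0.21 in epidermis, and 0.06, -0.58 and -1.38 in salivary gland. Wing disc and CNS overlapped each other below midgut.

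VhaAC39-1 encodes subunit d, which couples the c ring to the central stalk. It read -2.03, -2.38 and -1.71 in wing disc, -1.20, -1.01 and -1.19 in CNS, 0.26, 0.29 and 0.00 in midgut, -0.44, -0.02 and -0.02 in epidermis, and 0.24, -0.14 and -0.60 in salivary gland. The groups formed 3 levels without overlap: wing disc, then CNS, then the remaining tissues. Among the 20 genes its F test gave the third smallest adjusted p (8.76e-06), after Vha100-5 and VhaM9.7-a. Its paralogue VhaAC39-2 was measured on 7 arrays, at 0.19 in wing disc, 0.48 in CNS, 0.43 and 0.17 in midgut, 0.46 and -0.44 in epidermis, and 0.19 in salivary gland. The 1 wing disc and 1 CNS value of VhaAC39-2 were above 0, where VhaAC39-1 was low, but these single arrays allow no test. VhaAC45, the accessory subunit, read -2.59, -2.72 and -2.69 in wing disc, -2.0, -2.64 and -2.12 in CNS, -0.05, 0.15 and -0.34 in midgut, -1.30, -0.34 and 0.29 in epidermis, and 0.04, -0.79 and -1.73 in salivary gland. Wing disc and CNS lay below midgut, epidermis and salivary gland on every array.

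In wing disc, pump transcripts were low. Against the mean of the other 4 tissues 12 of 20 Vha genes were lower and 0 higher, where 10.4% of all features were lower. The median difference of the 20 genes was -1.02, against -0.05 for all features, and 19 of the 20 lay below 0. The largest falls were those of Vha55 (-1.97, SE 0.503, adjusted p = 0.0109, limma), VhaAC45 (-1.77, SE 0.319, adjusted p = 0.00103), VhaAC39-1 (-1.72, SE 0.194, adjusted p = 2.17e-05) and Vha14-1 (-1.65, SE 0.24, adjusted p = 0.00018), or 3.91-fold, 3.41-fold, 3.30-fold and 3.13-fold. Also lower were Vha36-1 (-1.48), Vha100-5 (-1.41), Vha16-1 (-1.36), VhaSFD (-1.18), Vha13 (-1.13), Vha44 (-1.05), VhaPPA1-1 (-1.0) and Vha100-4 (-0.71). The 8 genes without a call lay between -0.62 (Vha26) and 0.01 (VhaM9.7-b), and 13 of 20 had an unadjusted p under 0.05. Without single wing disc arrays the calls were lost for Vha13 (-0.75 without array 3), Vha55 (-1.80 without array 1), Vha100-4 (-0.56 and -0.58 without array 2 or 3), VhaSFD (-1.11 to -1.27 without any of the 3) and VhaPPA1-1 (-0.94 to -1.03 without any of the 3).

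In midgut, many pump transcripts were higher than in wing disc and CNS. Against the mean of the other 4 tissues 9 of 20 Vha genes were higher and 1 lower, where 14.2% of all features were higher and 15.5% lower. The median difference was 0.76, against -0.09 for all features. Vha100-5 rose most (4.32, SE 0.252, adjusted p = 2.65e-09, or 20-fold), followed by Vha100-4 (1.94, SE 0.218, adjusted p = 4.32e-06, or 3.84-fold). Genes of both sectors followed: Vha55 by 1.56, VhaAC45 by 1.47, Vha36-1 by 1.34, VhaSFD by 1.10, VhaAC39-1 by 1.06, Vha16-1 by 0.94 and Vha14-1 by 0.77. In pairs of tissues, each gene from Vha55 to Vha14-1 was called higher in midgut than in wing disc and in CNS. None of them was called between midgut and epidermis or salivary gland. The gene that fell was VhaM9.7-a (-0.77, SE 0.235, adjusted p = 0.0205), whose 4-tissue mean contains the high CNS value. Without midgut array 1 the count was 6, and without single midgut arrays the calls were lost for Vha14-1 (0.54 and 0.75 without array 1 or 2), Vha16-1 (0.72 and 0.84 without array 1 or 3), Vha55 (1.64 and 1.20 without array 1 or 2), VhaSFD (0.91 without array 2) and VhaM9.7-a (-0.73 and -0.58 without array 1 or 2). Markers of Malpighian tubule, a pump-rich organ attached to the gut, had list medians of -0.35, -0.73 and -0.49 on the midgut arrays, below whole animal, and 1 of 8 was higher and 1 lower in midgut than in the other tissues. The list median was below 0 on every array of the other tissues too (-1.22 to -0.33). Whether tubule was carried along with the midgut was not tested.

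In CNS, 1 gene was high and many were low. Against the mean of the other 4 tissues 1 Vha gene was higher and 7 were lower, where 11.9% of all features were higher and 10.2% lower. VhaM9.7-a was the higher gene (2.74, SE 0.235, adjusted p = 1.52e-06, or 6.66-fold). The lower genes were Vha100-2 (-1.27), VhaAC45 (-1.24), Vha100-5 (-1.24), Vha36-1 (-1.02), Vha100-4 (-0.94), Vha16-1 (-0.75) and VhaAC39-1 (-0.59). The median difference was -0.79, against -0.07 for all features. Without CNS array 1, 2 or 3 the counts were 5, 4 and 4. The calls that rested on single CNS arrays were Vha100-2 (-1.15 to -1.40 without any of the 3), Vha16-1 (-0.68 to -0.83), VhaAC39-1 (-0.55 to -0.65), Vha100-4 (-0.64 without array 3) and VhaAC45 (-1.05 without array 2). Vha16-1 also lost its call without wing disc array 2 or 3 or midgut array 1 or 3 (-0.70 to -0.76), and VhaAC39-1 without any of epidermis arrays 2 and 3, salivary gland array 2, wing disc array 3 and midgut arrays 1 and 2 (-0.54 to -0.58).

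Epidermis and salivary gland had few calls. In epidermis 1 Vha gene was higher (VhaAC39-1, 0.63) and 2 lower (Vha100-5, -1.5, and VhaM9.7-a, -0.84), where 8.12% of features were higher and 3.63% lower. In salivary gland 2 were higher (Vha16-1, 0.97, and VhaAC39-1, 0.62) and 0 lower, where 7.72% of features were higher. These counts depended on single arrays. The epidermis count was 8 without epidermis array 1, 5 without salivary gland array 1, and 1 without epidermis array 2 or 3. The salivary gland count was 0 without salivary gland array 1, 4 without array 3 and 1 without epidermis array 2. The call of VhaAC39-1 in epidermis was lost in 15 of 22 alternatives (values from 0.51 to 0.65 in these), and that of VhaM9.7-a without epidermis array 2 or 3 (-0.86 and -0.51). In salivary gland the call of Vha16-1 was lost without array 1 (0.63) and that of VhaAC39-1 without array 1 or 2 (0.42 and 0.61). The 5 comparisons share their arrays: a low value in wing disc raises the differences of the other tissues. The means against which Vha100-5 and Vha100-4 are set outside midgut contain their midgut values. In pairs, Vha100-4 in wing disc and in CNS had no call against epidermis or salivary gland. The mean for VhaM9.7-a in epidermis contains its high CNS value. In pairs, its epidermis value had no call against salivary gland (-0.22), wing disc (-0.22) or midgut (-0.06).

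**Figure D2:**
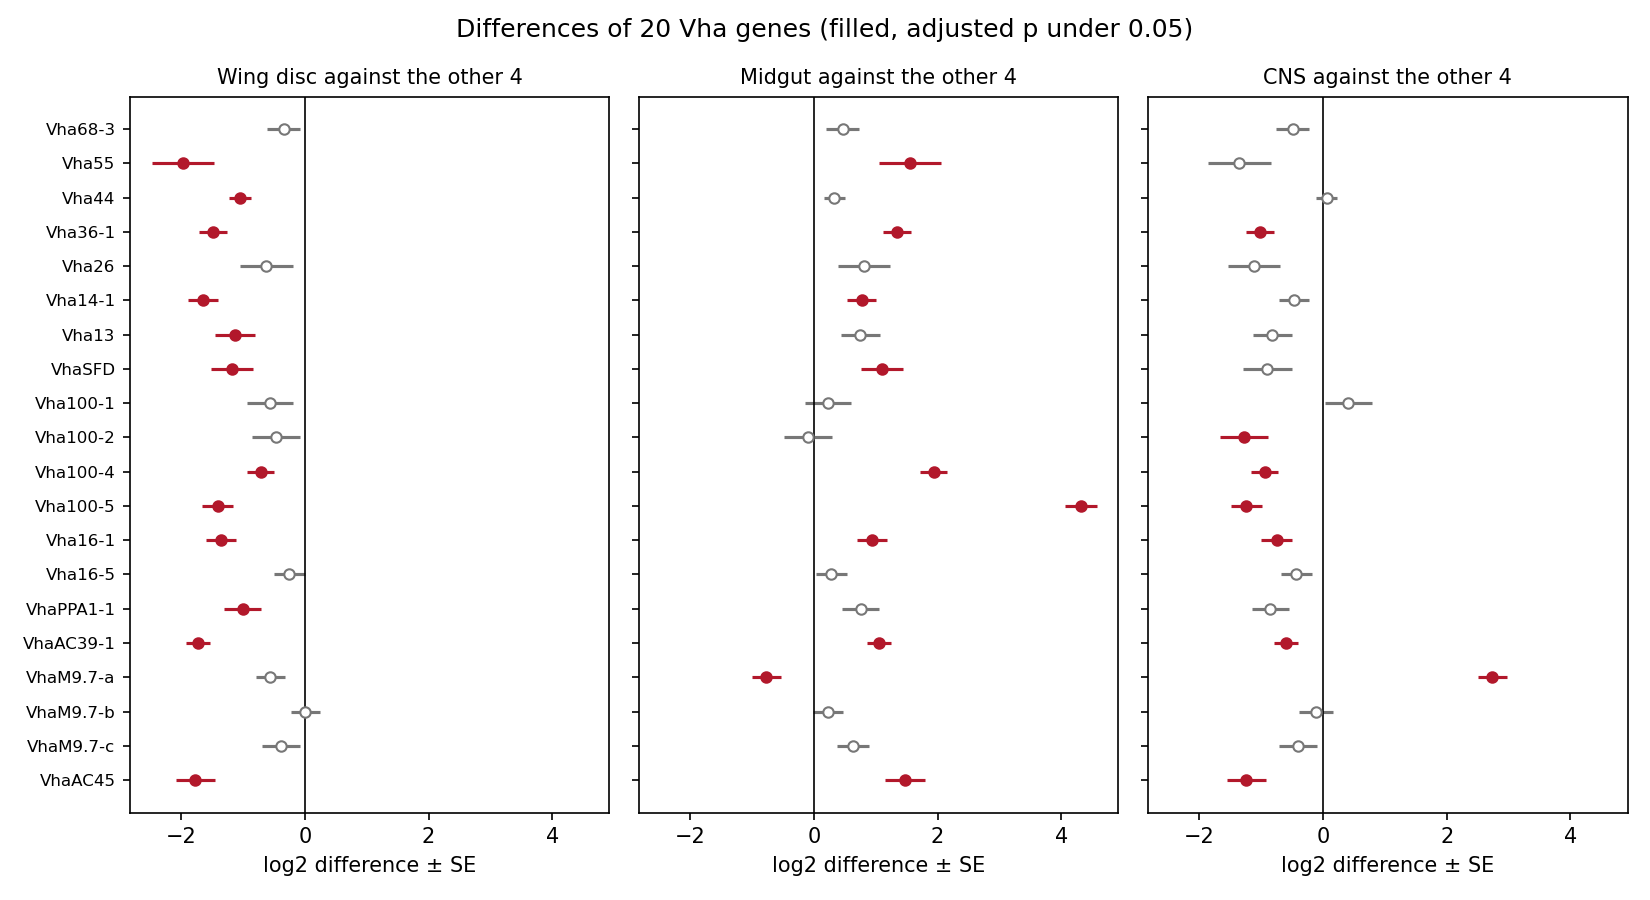
Difference in log2 ratio (x axis, ± SE from limma) between 1 tissue and the mean of the other 4 for 20 Vha genes (y axis), in wing disc, midgut and CNS; filled red points have an adjusted p under 0.05. Wing disc holds 12 filled points, all below 0, midgut holds 9 above 0 and 1 below, and CNS holds VhaM9.7-a at 2.74 and 7 below 0.

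Pairs of tissues gave the order. Between epidermis and wing disc 11 of 21 Vha genes were higher in epidermis, where 6.92% of features were. Between salivary gland and wing disc 11 of 21 were higher in salivary gland, where 8.27% of features were. Between wing disc and midgut 12 of 22 were lower in wing disc, where 12.6% of features were. Midgut against CNS gave 12 of 20 higher (12.6% of features) and 1 lower (14.2%), which was VhaM9.7-a. Epidermis against CNS gave 7 higher (8.43%) and 1 lower (6.95%), and salivary gland against CNS gave 6 higher (7.71%) and 1 lower (11.5%), the lower gene being VhaM9.7-a each time. Wing disc against CNS gave 3 of 21 lower in wing disc (3.23%), namely Vha44, VhaAC39-1 and VhaM9.7-a, and 0 higher. The 3 tissues with more pump transcript differed by fewer genes. Epidermis and salivary gland were each below midgut for Vha100-4 and Vha100-5 alone, where 8.48% and 8.59% of features were lower, and epidermis was below salivary gland for Vha100-5 alone (-1.06, SE 0.318, adjusted p = 0.0415), where 3.79% of features were.

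Single arrays moved several of these counts. Epidermis against wing disc gave 6 without epidermis array 2 and 7 without epidermis array 3 or any wing disc array. Salivary gland against wing disc gave 7 without salivary gland array 1 or 2 or wing disc array 3, and 6 without wing disc array 2. Epidermis against CNS gave 5 without epidermis array 3 or CNS array 2. Salivary gland against CNS gave 3 without salivary gland array 1, 11 without salivary gland array 3 and 4 without CNS array 2. Wing disc against CNS gave 1 without any of the CNS arrays, and the call of Vha100-5 between epidermis and salivary gland was lost without any of 9 arrays, which were epidermis 2 and 3, salivary gland 1 and 2, wing disc 3, midgut 1 to 3 and CNS 3. Pump genes in midgut against wing disc and against CNS kept counts of 11 to 13 and 10 to 13 whichever array was left out.

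Against whole animal, most Vha genes called in wing disc and CNS were lower. In wing disc 15 of 23 Vha genes were lower, where 20.8% of features were, and in CNS 15 of 21 were lower (21.4% of features) and 1 higher (19.5%). In salivary gland 2 of 21 were higher (16.6%) and 6 lower (18.9%), but 2 and 2 with centring on the features of all 15 arrays and 1 and 1 without salivary gland array 3. In midgut 4 of 23 were higher (13.6%), namely Vha100-4, Vha100-5, Vha16-1 and VhaM9.7-c, and Vha100-2 was lower (15.2%). In epidermis VhaM9.7-d was higher (12.0%) and Vha100-4 and Vha100-5 were lower (12.5%). Of the 20 genes, 8 had a mean below whole animal in all 5 tissues (40%, against 14.6% of features) and 0 had a mean above it in all 5. The 8 were Vha100-1, Vha100-2, Vha26, Vha55, Vha68-3, VhaAC45, VhaPPA1-1 and VhaSFD. The count takes the signs of means only, and Vha100-1 lay at -0.01 (SE 0.336) in epidermis. Single rows of Vha100-1 and Vha100-2 also had means above whole animal, without a call. Row 1 of Vha100-1 lay at 0.42 in epidermis and 0.22 in midgut, and its row 2 at 0.12 in CNS. Row 2 of Vha100-2 lay at 0.16 in epidermis. The whole animal also holds organs that were not put on arrays of their own here, among them the Malpighian tubules. Their part in these values was not tested. Since dyes were not swapped, a dye effect of a gene cannot be told apart from a level below whole animal in all 5 tissues. The epidermis count was 5 without epidermis array 3, the salivary gland count 5 or 2 without array 2 or 3, and the midgut count 2 or 1 without array 1 or 3.

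The subunits with 1 gene show the spread of the pump within a tissue. Vha55, Vha44, Vha26, Vha13, VhaSFD and VhaAC45 are taken here as the 6 genes that are the only one for their subunit, although VhaAC45RP is a related gene. Their median over tissues was -1.88 in wing disc, -1.96 in CNS, -0.13 in midgut, -0.44 in epidermis, and -0.87 in salivary gland. Within epidermis the median was -1.30, -0.28 and 0.31 on arrays 1, 2 and 3. Within salivary gland it was -0.03, -0.60 and -1.83. The wing disc arrays stayed between -2.20 and -1.64, the midgut arrays between -0.39 and 0.15 and the CNS arrays between -2.20 and -1.78. Vha55, Vha26, VhaSFD and VhaAC45 each had their lowest value of the tissue on epidermis array 1 and salivary gland array 3, while Vha13 read 0.52 and 0.40 on these arrays.

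Epidermis and salivary gland arrays were then compared within each tissue, with the arrays chosen after their values were seen. On epidermis array 3, 7 of 18 Vha genes read more than log2 1 above array 1 (38.9%), against 12.8% of all features. On salivary gland array 1, 9 of 20 read more than log2 1 above array 3 (45.0%), against 8.6% of all features. In the other tissues arrays 1 and 3 were set side by side without regard to their values. In wing disc 1 of 19 Vha genes, Vha16-5, read more than log2 1 higher on array 3 (4.6% of features) and 2, Vha13 and Vha68-3, more than log2 1 lower (6.2%). In midgut 0 of 20 did so in either direction (5.3% and 1.5%). In CNS 0 of 18 read higher by that much (2.0%) and 2, Vha68-3 and Vha100-4, lower (5.5%). These falls of Vha68-3 and Vha100-4 set the mean of rows 1 and 2 on array 1 against row 2 alone on array 3. Within row 2, Vha68-3 read -1.35 and -1.90 on CNS arrays 1 and 3, and -0.37 and -1.36 on those of wing disc. Row 2 of Vha100-4 read -1.40 and -1.92 on these CNS arrays. Both CNS steps in row 2 were below log2 1, and the wing disc step of Vha68-3 in row 2 lay close to log2 1. The rise of Vha16-5 in wing disc likewise set the mean of rows 1 and 2 on array 1 against row 1 alone on array 3. Within row 1, Vha16-5 read -0.5 and 0.47 on these wing disc arrays, a step below log2 1. The list medians of other cell types moved as follows over epidermis arrays 1, 2 and 3: cuticle 1.33, 1.71 and 2.51 (on 8, 8 and 5 genes), hemocyte -1.78, -0.65 and -0.77, fat body -2.37, -1.78 and -2.12, trachea 0.61, 0.56 and 0.92, muscle 0.71, 0.79 and 1.19, midgut -2.98, -2.86 and -4.71, and Malpighian tubule -0.50, -0.70 and -0.84. Over the salivary gland arrays the salivary gland list read 4.85, 3.57 and 3.66, the fat body list -0.42, -0.50 and -0.99, the hemocyte list -1.87, -0.54 and -2.05, and the Malpighian tubule list -1.02, -0.33 and -0.43. Their part in the spread of the Vha genes was not tested.

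**Figure D3:**
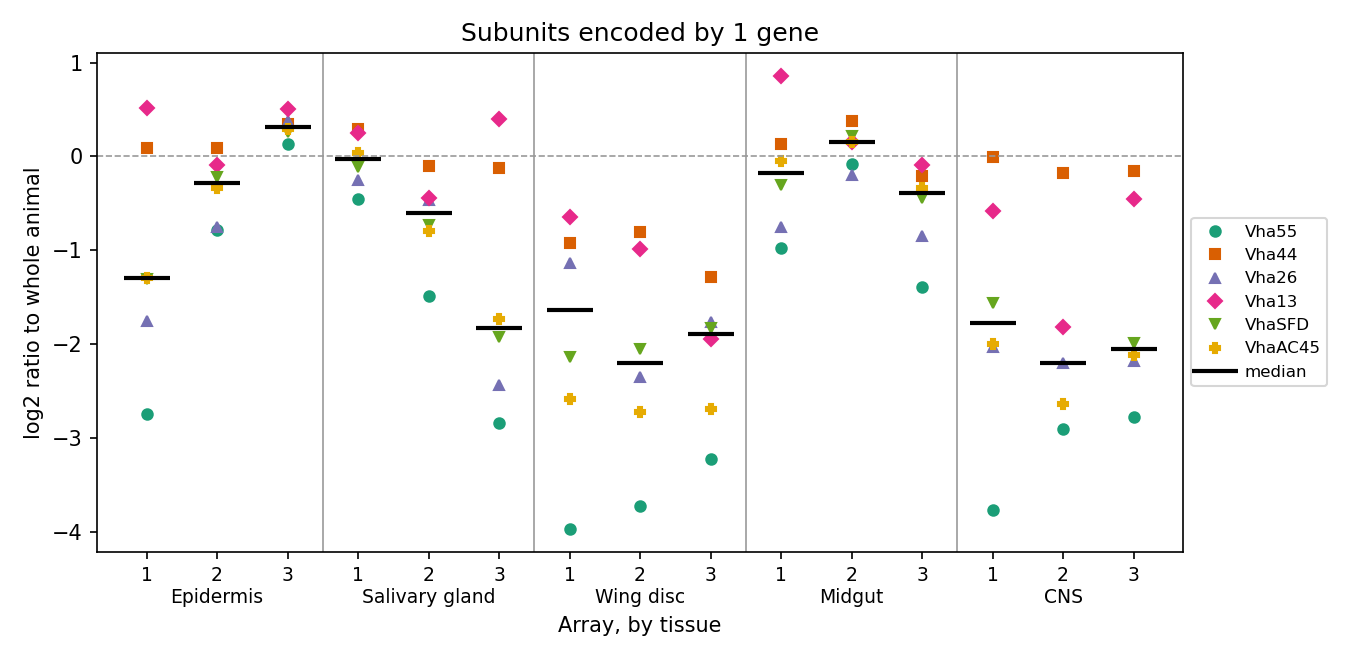
Median-centred log2 ratio to whole animal (y axis) of the 6 subunits encoded by 1 gene on each of 15 arrays (x axis, 3 per tissue), with the median of the 6 as a black bar. The median runs from -1.30 to 0.31 over the epidermis arrays and from -0.03 to -1.83 over the salivary gland arrays, and stays within -2.20 to -1.64 in wing disc.

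Subunit a, the largest V0 subunit, forms the proton half-channels and in yeast and mammals its isoforms place the pump on different membranes. Of its genes, Vha100-1 is known for a role in neurons, and Vha100-4 for acid secretion in the copper cells of the midgut. Vha100-5 read -3.35, -4.10 and -3.86 in wing disc, -3.14, -4.10 and -3.68 in CNS, 0.74, 0.96 and 0.74 in midgut, -3.62, -4.13 and -3.80 in epidermis, and -2.44, -2.39 and -3.53 in salivary gland. The midgut values stood above all 12 others by more than 3, with no overlap, and the other tissues overlapped apart from epidermis and salivary gland. Vha100-4 read -0.57, -1.45 and -1.40 in wing disc, -0.86, -1.17 and -1.92 in CNS, 0.90, 1.08 and 0.98 in midgut, -0.75, -0.69 and -0.89 in epidermis, and -0.69, -0.59 and -0.50 in salivary gland. Midgut again stood alone, by a smaller step.

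Vha100-2 read -1.62, -1.28 and -1.31 in wing disc, -2.28, -2.06 and -1.78 in CNS, -1.09, -0.67 and -1.51 in midgut, -1.16, -0.05 and 0.84 in epidermis, and 0.61, -0.36 and -1.63 in salivary gland. CNS was lowest on every array, and midgut overlapped wing disc. Vha100-1 read -1.02, -0.88 and -0.65 in wing disc, -0.26, -0.04 and 0.08 in CNS, -0.26, -0.07 and -0.32 in midgut, -0.62, -0.03 and 0.63 in epidermis, and 0.20, -0.38 and -2.41 in salivary gland. Its CNS values lay near 0 while those of Vha100-2 lay near -2. Vha100-4 and Vha100-2 are neighbours on chromosome arm 3R with no protein-coding gene between them, and midgut was the highest tissue for the first and the third of the 5 for the second.

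The difference of 2 paralogues on an array cancels the array's centring, and its spread among tissues was set against all assignments of arrays to tissues in an exact permutation test. Over 10 pairs, 8 had an adjusted p under 0.05 (Benjamini-Hochberg over the 10), and the pairs share genes. Vha100-1 minus Vha100-2 was 1.86 to 2.03 on the CNS arrays, 0.60 to 1.20 in midgut, 0.40 to 0.66 in wing disc, -0.22 to 0.54 in epidermis and -0.78 to -0.03 in salivary gland (exact p = 5.99e-05, adjusted 0.000599). The arrays that spread widely in epidermis and salivary gland for each gene alone spread by SDs of 0.389 and 0.377 in this difference. In CNS the difference had an SD of 0.094 and lay above every other array. Both genes are means of 2 rows here, and the rows of Vha100-1 correlated at -0.02 over 14 arrays. Row 1 of Vha100-1 read -0.31, -0.20 and -0.24 in CNS, below its 0.35, 0.15 and 0.16 in midgut. That row was not tested against Vha100-2, so the place of CNS holds for the row means. Vha100-5 differed from Vha100-1 and Vha100-2 (adjusted exact p = 0.00161 for both) and from Vha100-4 (adjusted exact p = 0.00473), the differences being 4.87, 5.63 and 2.90 between their highest and lowest tissue means. In midgut Vha100-4 minus Vha100-5 was 0.11 to 0.25, and in the other tissues 1.75 to 3.44.

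Vha100-2 against Vha100-4 passed narrowly (adjusted exact p = 0.0413), and without any of 9 arrays in turn it no longer did, with adjusted p from 0.0605 to 0.125. The 9 were epidermis arrays 2 and 3, salivary gland array 2, wing disc arrays 2 and 3, all midgut arrays and CNS array 2. Vha100-1 against Vha100-4 did not pass (adjusted exact p = 0.0508), but it passed under 3 other settings (0.0144 to 0.0457) and without any 1 of 5 arrays (0.011 to 0.0496), namely array 1 of epidermis, salivary gland, wing disc or CNS and array 3 of salivary gland. For Vha16-1 against Vha16-5 the difference ran from -0.81 in wing disc to 0.61 in midgut (adjusted exact p = 0.0401). That call was lost without any of 7 arrays (salivary gland arrays 1 and 3, wing disc arrays 2 and 3, midgut arrays 1 and 3 and CNS array 2), with adjusted p from 0.0562 to 0.104. It holds for the mean of both Vha16-5 rows and for row 1 (adjusted exact p = 0.0144); row 2, which was low in wing disc as Vha16-1 was, was not tested against Vha16-1.

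**Figure D4:**
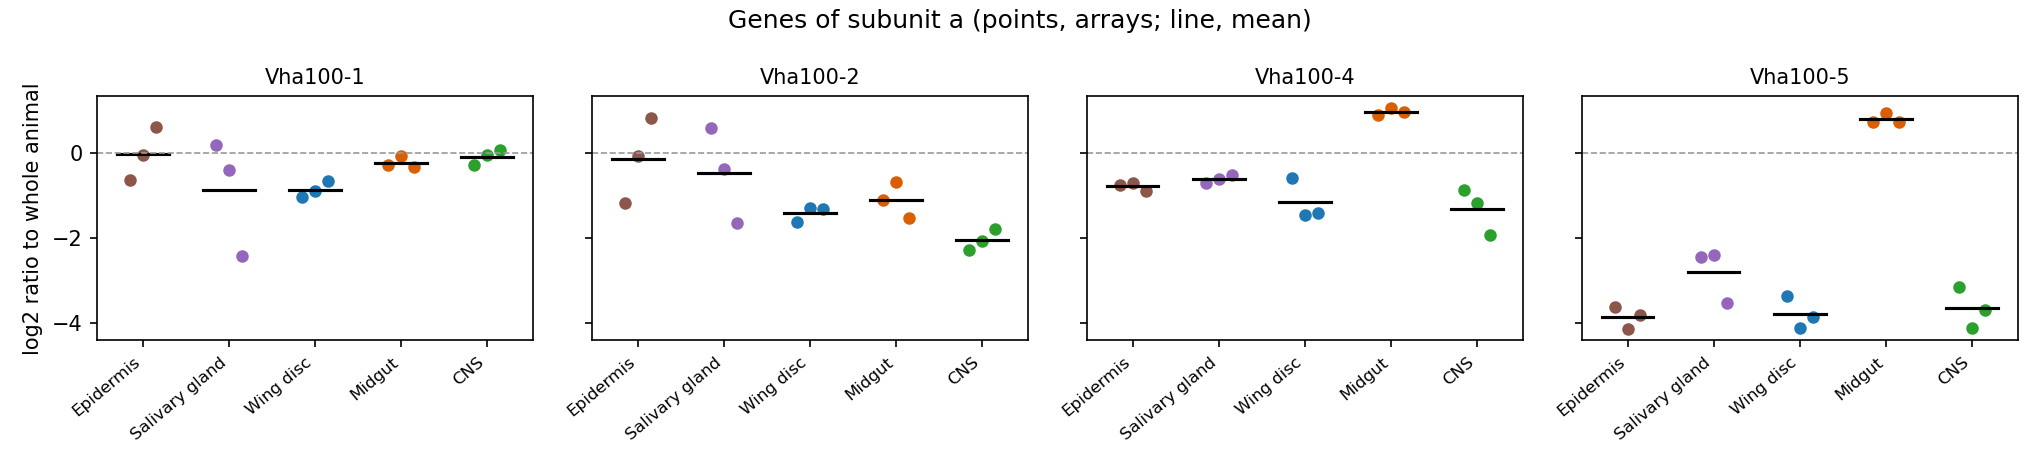
Median-centred log2 ratio to whole animal (y axis, shared) of the 4 measured genes of subunit a by tissue (x axis); points are arrays (3 per tissue) and lines are means. Vha100-5 and Vha100-4 are above 0 in midgut alone, at means of 0.81 and 0.99, and Vha100-2 has its lowest mean in CNS at -2.04 where Vha100-1 has -0.07.

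Several Vha genes had more than 1 row, and the rows did not always read alike. The rows of Vha100-1 correlated at -0.02 over 14 arrays: row 1 read -0.31, -0.20 and -0.24 in CNS and -0.06, 0.13 and -0.07 in wing disc, while row 2 read -0.21, 0.15 and 0.42 in CNS and -1.96, -1.87 and -1.22 in wing disc. Both rows thus separated CNS from wing disc without overlap but in opposite directions, CNS being the lower tissue in row 1 and the higher in row 2. Salivary gland array 3 was measured by row 2 only, at -2.40. The rows of Vha100-4 were alike in direction, with midgut values of 0.75, 0.81 and 0.84 in row 1 and 1.07, 1.34 and 1.14 in row 2, and midgut was highest in both. Row 1 was not measured on wing disc arrays 2 and 3 or CNS array 3, where the gene's value is row 2 alone. Row 2 read -1.28, -1.44 and -1.39 in wing disc and -1.40, -2.07 and -1.92 in CNS. For Vha100-2, row 1 read -3.11, -2.85 and -3.02 in CNS and row 2 -1.43, -1.26 and -0.52. Row 2 alone did not call it in CNS against the other tissues (-0.60, SE 0.248). The call of VhaPPA1-1 in wing disc rested on row 1 (-1.66, SE 0.265), since row 2 gave -0.23 (SE 0.323). The rows of VhaAC45 (r = 0.96) and rows 1 and 3 of Vha44 (r = 0.93) ran together, and row 2 of Vha44 stood higher in CNS. These correlations are descriptions over arrays of the same samples, and whether rows hybridise with paralogues was not tested.

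Subunit e is a small V0 protein encoded by VhaM9.7 genes. VhaM9.7-a read -0.05, 0.18 and 0.05 in wing disc, 2.56, 2.99 and 2.55 in CNS, -0.18, -0.48 and 0.34 in midgut, 0.46, -0.13 and -0.81 in epidermis, and 0.20, -0.24 and 0.21 in salivary gland. The CNS arrays stood above all 12 others by more than 2, and the other tissues overlapped one another. VhaM9.7-b read 0.01, 0.24 and -0.30 in wing disc, 0.14 and -0.37 in CNS, 0.18, -0.09 and 0.38 in midgut, 0.00, -0.02 and -0.58 in epidermis, and -0.37, -0.23 and 0.70 in salivary gland. All 5 tissues overlapped, and its F test gave an adjusted p of 0.843 in limma. VhaM9.7-c read 0.12 and -0.32 in wing disc, 0.09 and -0.32 in CNS, 0.52, 0.14 and 1.49 in midgut, 0.28 and 0.07 in epidermis, and 0.44, 0.07 and 0.61 in salivary gland. VhaM9.7-d, measured on 9 arrays, read 0.22 and -0.33 in wing disc, 0.59 in CNS, 1.12 and 0.35 in midgut, 1.47 and 1.04 in epidermis, and 1.5 and 1.4 in salivary gland. Epidermis and salivary gland lay above wing disc for VhaM9.7-d by 1.31 (SE 0.351, adjusted p = 0.0393) and 1.51 (SE 0.351, adjusted p = 0.0137) on 2 arrays each.

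VhaM9.7-a minus VhaM9.7-b was 2.41 and 3.37 on the CNS arrays that measured both, and -0.49 to 0.57 elsewhere (adjusted exact p = 0.0114). VhaM9.7-a minus VhaM9.7-c was 2.46 and 3.32 in CNS and -1.15 to 0.50 elsewhere (adjusted exact p = 0.00161). VhaM9.7-b and VhaM9.7-c did not differ in profile past the threshold (exact p = 0.337), with tissue means of their difference from -0.56 to 0.22. Without CNS array 2 the number of paralogue pairs past the threshold was 4 of 7 that could be tested, and it was 5 of 7 without epidermis array 2 and 5 of 8 without wing disc array 2.

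**Figure D5:**
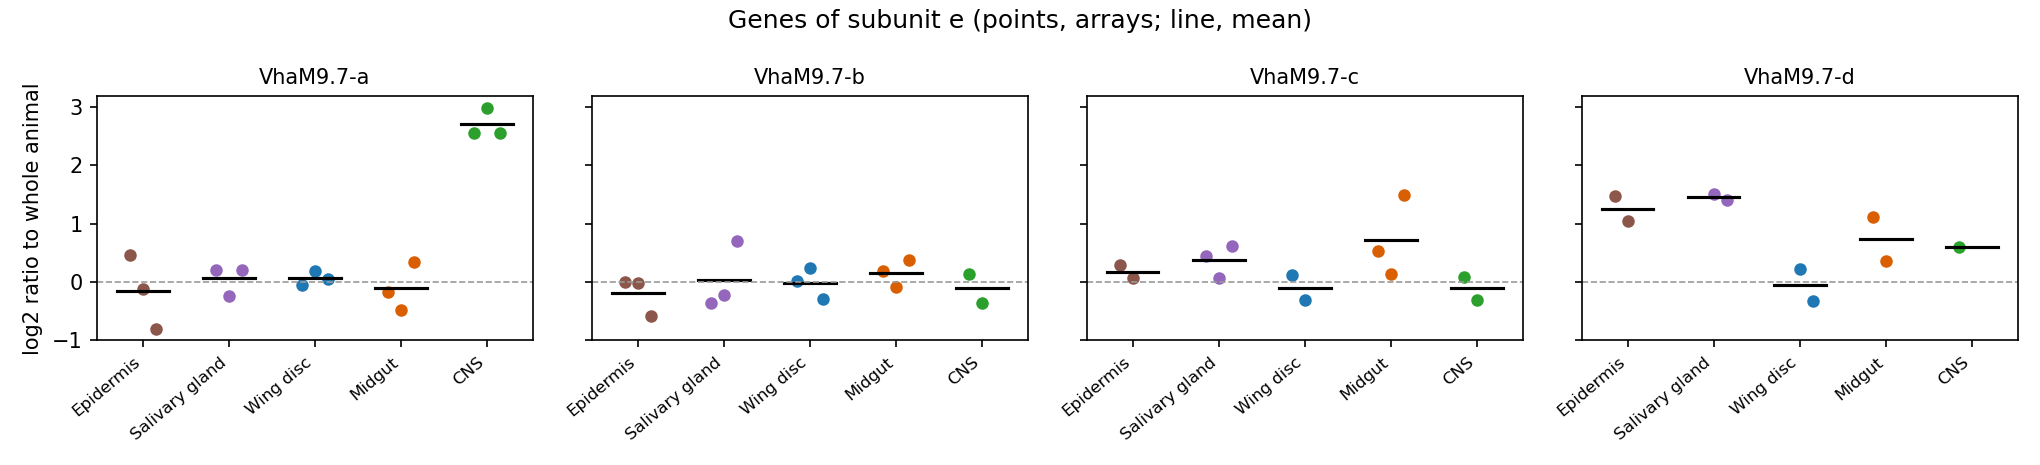
Median-centred log2 ratio to whole animal (y axis, shared) of the 4 genes of subunit e by tissue (x axis); points are the arrays that measured the gene and lines are their means. VhaM9.7-a reads 2.55 to 2.99 in CNS and lies between -0.81 and 0.46 in the other tissues, and no other VhaM9.7 gene stands apart in CNS.

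The tissue means of most pump genes correlated with those of the genes that are the only one for their subunit. The Pearson correlation of a gene's 5 tissue means with the median of the 6 genes above was 0.96 for Vha36-1, 0.98 for VhaPPA1-1, 0.90 for VhaAC39-1 and 0.86 for both Vha14-1 and Vha16-1. It was 0.81 for Vha100-4, 0.72 for Vha100-2, 0.65 for Vha100-5, 0.33 for VhaM9.7-b, 0.29 for Vha100-1 and -0.65 for VhaM9.7-a. Vha44, set against the median without itself, had 0.7. Vha16-5 and VhaM9.7-c (both 0.89) and Vha68-3 (0.93), which did not pass the F test, also had high values. A high correlation thus does not show that a gene differed among the tissues. These are descriptions over 5 tissues that share arrays and the reference.

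Genes that act with the pump were counted from lists. ATP6AP2, an accessory protein needed for assembly of the pump, was lower in wing disc than in the other 4 tissues (-1.33, SE 0.278, adjusted p = 0.00302, limma), as were 12 of the 20 Vha genes. It was 1 of 2 measured genes in the list of assembly factors and regulators. Of 15 lysosomal genes tested, which act in the compartment that the pump acidifies, 9 were lower and 1 higher in wing disc (median -0.69, all features -0.05), where 10.4% and 9.46% of features were. In midgut 9 were higher and 0 lower (median 0.95, all features -0.09), where 14.2% and 15.5% of features were. The lysosomal genes did not run with the Vha genes in every tissue: in salivary gland 4 were lower and 1 higher, where 0 Vha genes were lower and 2 higher, and in CNS 3 were lower and 2 higher, where 7 Vha genes were lower and 1 higher. In epidermis 1 was lower and 1 higher. In wing disc Cln3, cathD (an aspartic protease) and Npc2a (a sterol carrier) lay at -2.14, -1.94 and -1.74, and Ppt1 rose by 0.68. In midgut the proteases CtsB, CtsL1 and cathD rose by 3.31, 3.19 and 2.82.

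Of 17 ion transporters and carbonic anhydrases, which work beside the pump in epithelia, 5 were lower and 0 higher in wing disc, where 10.4% and 9.46% of features were, with CAH7, CAH1 and Nhe1 at -3.52, -2.14 and -1.57. In midgut 7 were higher and 1 lower, where 14.2% and 15.5% of features were, with the carbonic anhydrases CAH7 and CAH1 at 2.17 and 1.49, the exchanger Nha1 at 1.84, and nrv2, a Na+/K+-ATPase beta subunit, at -1.21. Epidermis had 4 higher and 0 lower, where 8.12% and 3.63% of features were, with CAH7 at 1.76 and nrv1 and Nha1 both at 1.42. Salivary gland had 3 higher and 2 lower, where 7.72% and 10.5% of features were. There Nhe1, NKCC and NAAT1 lay at 2.36, 1.39 and 1.04, and CAH7 and CAH1 at -1.3 and -0.7. In CNS 2 of 17 rose, nrv3 by 2.28 and nrv2 by 0.95, and 2 were lower, Nha1 (-1.71) and nrv1 (-0.83), shares near the 11.9% and 10.2% of all features. Of 11 genes of the TORC1 pathway, which senses nutrients at the lysosome, 2 were higher in midgut (Lamtor4, 1.26, and S6k, 0.85), where 14.2% of all features were, and in salivary gland foxo was higher (0.52) and S6k lower (-0.69), where 7.72% and 10.5% of features were. The TORC1 counts are thus near those of transcripts at large. Of the copper cell list of 5 genes, 2 besides Vha100-4 could be tested, and thetaTry (6.04) and CAH9 (0.92) were both higher in midgut. The trypsin gene thetaTry is also in the general midgut list, all 17 tested genes of which were higher there, so its value does not bear on copper cells in particular.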

How the data were processed

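The authors deposited log2 ratios, tissue (Cy5) over whole animal (Cy3), for each row and array; the scale was read from the values, and direction, in vitro transcription and independent samples per the labels. How arrays were scanned, background-corrected and normalized is not given in the sources used here. Gene names came from GEO's platform annotation, checked against current records. Averaging the rows of a gene left 13128 features. The average on an array takes the rows measured there, so a gene's value can rest on different rows on different arrays. Arrays were centred on their medians (-0.127 to 0.088 before centring). limma 3.58.1 in R 4.3.3 fitted 1 mean per tissue over 15 arrays with empirical Bayes (prior degrees of freedom 5.919). A feature was tested with at least 2 arrays in each tissue needed. Adjusted p-values are Benjamini-Hochberg values over all features of a comparison, with a threshold of 0.05. Differences of paralogues were tested by exact permutation of arrays. Spread between independent samples enters the p-values; that of the reference does not. Values on every array were given for members with a measured paralogue or tissue means at least log2 1 apart past the F test, and from other lists at most 3 called genes per direction. Members and lists were chosen with earlier results of these data known. Both tests were tested on simulated data. Tools were numpy 2.4.6, pandas 2.3.3, matplotlib 3.10.9 and scipy 1.17.1 in python 3.11.15. Alternatives were other centring, scaling, row choice and filter, robust moderation, a replicate block and each array left out. No genome sequence was used.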

Additional observations from a re-analysis of the deposited data

How the results depend on the processing

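The count over the 5 tissues (14) lay between 12 and 15 whichever array was left out, and no result changed direction. Counts that moved by over 1.5 times were those of salivary gland against whole animal (4 with centring on the features of all 15 arrays, 5 with those features alone), midgut against whole animal (3 with those features alone, where fewer genes were tested), epidermis against the other 4 (6 with the row on most arrays), salivary gland against the other 4 (1 without centring, with scaled arrays or with features of all 15 arrays alone, 4 with centring on them), CNS against the other 4 (5 with scaled arrays), salivary gland against wing disc (7, scaled) and wing disc against CNS (1, scaled); apart from fewer genes tested, the cause was not tested.

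With each array left out in turn, counts against whole animal ranged over 2 to 5 (epidermis), 2 to 10 (salivary gland), 14 to 16 (wing disc), 1 to 6 (midgut) and 12 to 16 (CNS). Against the other 4 they ranged over 1 to 8, 0 to 4, 8 to 13, 6 to 11 and 4 to 12 in the same order. Between tissues they were 0 to 1 for epidermis and salivary gland, 6 to 11 for epidermis and wing disc, 2 to 3 for epidermis and midgut, 5 to 10 for epidermis and CNS, 6 to 11 for salivary gland and wing disc, 2 to 3 for salivary gland and midgut, 3 to 11 for salivary gland and CNS, 11 to 13 for wing disc and midgut, 1 to 3 for wing disc and CNS, and 10 to 13 for midgut and CNS. Paralogue pairs ranged over 4 to 8. For single genes, 457 of these repeats kept the call and 56 lost it, and under the other settings 225 kept it and 14 lost it. Among the latter were Vha100-5 in wing disc and CNS with scaled arrays and Vha100-4 in wing disc with the other centring.

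Replicate numbers did not pair the samples: deviations of samples with the same number correlated at -0.487 to 0.352 (median 0.034 over 30 pairs). With a replicate block the count over the 5 tissues was 14, and no count moved by over 1.5 times. A fit of wing disc, midgut and CNS arrays alone, chosen after seeing the data, gave 14 genes lower in wing disc than midgut, 4 lower in wing disc than CNS, and 13 higher and 1 lower in midgut than CNS.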
